A study of Mus musculus with 6 samples.

Results

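The genes examined here move glucose into islet cells, attach a phosphate to it or remove that phosphate again. They are 7 of the 16547 genes in the deposited expression table, chosen by symbol: the glucose transporters Slc2a2 and Slc2a1, the hexokinases Hk1 and Hk2, the glucose-6-phosphatases G6pc2 and G6pc3, and the glucose-6-phosphate transporter Slc37a4. All 7 were above 0 in every library and were tested.

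Total RNA was sequenced from islets of C57BL/6 mice aged 11 to 12 weeks, after 2 days of culture in RPMI medium, in 2 groups of 3 libraries. The WT group carried the floxed gene, Kcnj11 fl/fl. In the bKO group, βKcnj11 -/-, the gene was deleted in beta cells, and the Cre driver is not given in the sources used here. Kcnj11 encodes the pore-forming subunit Kir6.2 of the KATP channel, which closes when glucose metabolism raises ATP and so depolarizes the beta cell. Libraries are numbered by the replicate number in their labels. Whether each library is a different animal is not stated in the labels, and p-values therefore measure the spread between libraries, which may be technical. Values are FPKM, in which fragments are divided by the length of the transcript and by the sequencing depth, so that levels of different genes can be set side by side.

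Glucose enters mouse beta cells mainly through GLUT2, the low-affinity transporter that Slc2a2 encodes, whereas GLUT1, from Slc2a1, is the high-affinity transporter of many other cells. Hexokinases trap the sugar as glucose-6-phosphate, and Hk1 and Hk2 encode high-affinity forms that mature beta cells keep low. G6pc2 encodes a glucose-6-phosphatase of the endoplasmic reticulum that is largely restricted to islets and works against phosphorylation, G6pc3 encodes the widely expressed form, and Slc37a4 encodes the carrier that brings glucose-6-phosphate into that compartment.

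Library facts that touch the results come first. Depth, estimated from the steps between low FPKM values, lay between 23400000 and 40600000 fragments. Kcnj11 was at 19.7, 24.7 and 25.4 FPKM in WT libraries 1 to 3 and at 3.45, 5.31 and 3.51 FPKM in bKO libraries 1 to 3, a called fall (log2 difference -2.35, limma adjusted p = 0.0250). This call was lost with bKO replicates 1 and 3 averaged (adjusted p = 0.211), with the replicate block (0.0788), and on leaving out WT replicate 2 (0.0771), WT replicate 3 (0.0960), bKO replicate 1 (0.228) or bKO replicate 3 (0.175), while the log2 difference stayed between -2.52 and -2.26 in these fits and in those without WT replicate 1 or bKO replicate 2. All 14 beta cell markers were above 0 in every library, with the lowest value at 22.2 FPKM. The libraries bKO replicates 1 and 3 were the most alike of all pairs (Pearson r across genes 0.9986), and values with both merged into a single averaged sample are therefore added. Markers of acinar cells, which make the digestive enzymes, were far lower in WT replicate 1 than elsewhere, with a summed level of 1090 FPKM against 9193 to 21294 FPKM in the other libraries. In such mixed samples, fewer cells of a type and less RNA per cell cannot be told apart.

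The start-site windows of 4 of the genes are shown. G6pc2 was taken because it had the largest difference between the groups among the 7. Slc2a2 was taken as the gene of the main glucose transporter of mouse beta cells. Slc2a1 and Hk2 were taken because they varied together across the libraries. Each window holds 250 bases before and 50 after a RefSeq transcription start in build GRCm38.p6, which is not the mm9 build of the expression values. All 7 genes matched the RefSeq table, G6pc2, Slc37a4 and Hk1 with more than 1 window each, and the first is shown for G6pc2. The G6pc2 window is chr2:69210823-69211122 on the plus strand and the Slc2a2 window is chr3:28697653-28697952 on the plus strand. The Slc2a1 window is chr4:119108495-119108794 on the plus strand and the Hk2 window is chr6:82774405-82774704 on the minus strand. Capitals mark 2 short motifs on either strand: TAAT, the core bound by homeodomain factors (ATTA on the other strand), and ACGTG, the core of hypoxia response elements (CACGT on the other strand).
G6pc2: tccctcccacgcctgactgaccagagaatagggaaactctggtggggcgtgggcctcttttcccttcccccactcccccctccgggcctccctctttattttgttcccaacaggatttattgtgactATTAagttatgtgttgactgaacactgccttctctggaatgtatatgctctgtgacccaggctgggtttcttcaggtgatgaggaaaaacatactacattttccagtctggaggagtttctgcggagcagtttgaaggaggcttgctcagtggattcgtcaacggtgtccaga
Slc2a2: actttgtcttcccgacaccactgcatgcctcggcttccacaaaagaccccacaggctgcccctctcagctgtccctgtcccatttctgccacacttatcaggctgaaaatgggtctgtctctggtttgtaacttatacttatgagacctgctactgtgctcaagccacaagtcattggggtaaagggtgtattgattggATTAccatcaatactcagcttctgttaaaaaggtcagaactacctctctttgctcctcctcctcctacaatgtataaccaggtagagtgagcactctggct
Slc2a1: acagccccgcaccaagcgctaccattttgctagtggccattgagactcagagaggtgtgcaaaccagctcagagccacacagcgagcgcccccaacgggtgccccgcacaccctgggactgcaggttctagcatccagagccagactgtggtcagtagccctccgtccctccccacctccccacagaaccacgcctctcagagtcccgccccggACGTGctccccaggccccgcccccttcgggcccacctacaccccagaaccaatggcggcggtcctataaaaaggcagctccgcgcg
Hk2: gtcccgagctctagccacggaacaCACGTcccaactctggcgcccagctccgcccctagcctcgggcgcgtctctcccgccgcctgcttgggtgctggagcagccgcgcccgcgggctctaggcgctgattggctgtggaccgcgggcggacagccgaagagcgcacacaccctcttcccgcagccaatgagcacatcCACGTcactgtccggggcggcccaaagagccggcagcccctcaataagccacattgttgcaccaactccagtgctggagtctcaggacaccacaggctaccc
The G6pc2 and Slc2a2 windows each held 1 TAAT and 0 ACGTG. The Slc2a1 window held 1 ACGTG and the Hk2 window 2, and both held 0 TAAT. No 2 marked motifs overlapped in these windows. The motifs did not separate the genes: the second G6pc2 window held 1 ACGTG and 3 TAAT, and the G6pc3 window 4 ACGTG and 1 TAAT. The ACGTG matches of G6pc3 lay in 2 CACGTG stretches, each of which counts once on either strand. The first Hk1 window held neither motif and the second Hk1 window 2 ACGTG and 1 TAAT. Of 32851 mouse windows of the same length, 58.0% held TAAT and 19.6% held ACGTG. A match describes the letters and shows no binding.

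The levels of the 7 genes covered a wide range within each library. G6pc2 was the highest by far, between rank 81 and rank 111 of 16547 genes in WT libraries and between rank 127 and rank 161 in bKO libraries. In WT the order of mean FPKM was G6pc2, Slc2a1, G6pc3, Slc37a4, Slc2a2, Hk1 and Hk2. The same order held in bKO. Slc2a1 and G6pc3 overlapped in WT, as did G6pc3 and Slc37a4, but Slc2a1 was above G6pc3 in 2 of 3 WT libraries and G6pc3 above Slc37a4 in 3 of 3. In bKO it was Slc2a2 and Hk1 that overlapped, at 17.1 ± 2.83 and 15.9 ± 3.22 FPKM (SD, n = 3). Hk2 was the lowest in every library, at about 300 to 820 fragments, which gives a counting error of 3.50% to 5.81% of its value.

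**Figure D1:**
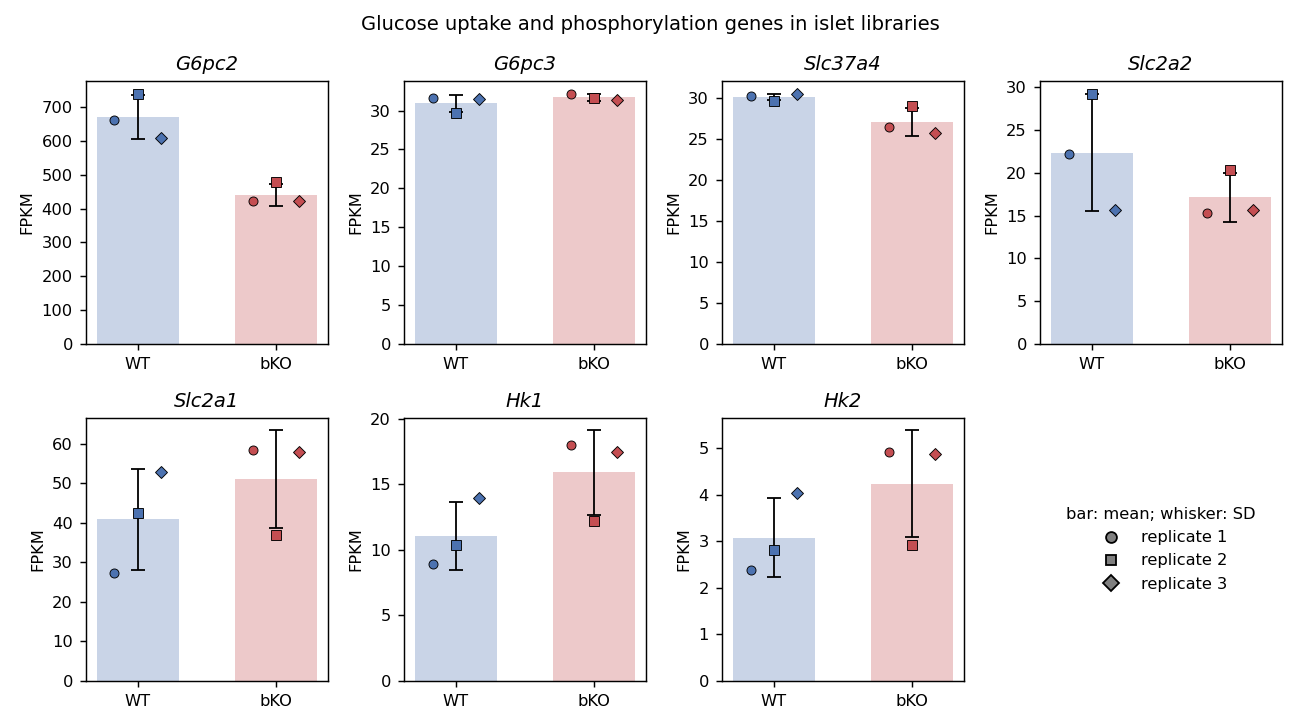
FPKM of the 7 genes (y axis, starting at 0) in WT and bKO islet libraries (x axis). Bars are means, whiskers are SD, and circles, squares and diamonds are replicates 1, 2 and 3. G6pc2 and Slc37a4 are the genes whose 3 bKO values all lie below the 3 WT values.

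None of the 7 genes passed the threshold of 0.05 on adjusted p in the comparison of bKO with WT, which asks whether the glucose entry genes differ between islets with and without beta cell Kir6.2. Over all 15962 genes tested, 0.194% were called by limma, a linear model on quantile normalized log2(FPKM + 1). At an unadjusted p below 0.05, 2 of the 7, G6pc2 and Slc37a4, were lower in bKO, where 9.17% of all genes were lower. The same 2 genes were the ones whose groups did not overlap, both lower in bKO, where 6.48% of all genes did so. A further 15.3% of all genes had no overlap and were higher in bKO, and 0 of the 7 genes did. Overlap was read from deposited FPKM, whereas the limma p-values are from quantile normalized values, and the balance of directions depends on this step. At an unadjusted limma p below 0.05, 806 genes were higher and 1464 lower with it. Without it, 1698 were higher and 816 lower. The median log2 difference of the 7 genes was -0.02 and that of all tested genes -0.01.

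Among the 7 genes, G6pc2 had the largest difference and G6pc3 the smallest, and neither passed over all genes. G6pc2 measured 662, 739 and 609 FPKM in WT libraries 1 to 3 and at 423, 477 and 422 FPKM in bKO libraries 1 to 3. Every bKO library lay below every WT library, the lowest WT value being 1.28 times the highest bKO value. The mean was 670 ± 65.4 FPKM in WT and 441 ± 31.9 FPKM in bKO (SD, n = 3 each), 65.8% of the WT mean. On the log2 scale the difference was -0.63 (SE 0.13, 95% interval -0.95 to -0.31, limma adjusted p = 0.120). With bKO replicates 1 and 3 averaged as 1 sample it was -0.58 (limma adjusted p = 0.472).

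Slc37a4, the carrier for the substrate of both phosphatases, was at 30.3, 29.7 and 30.5 FPKM in WT libraries 1 to 3. It was at 26.5, 29.0 and 25.8 FPKM in bKO libraries 1 to 3. The groups did not overlap, but the gap was narrow, the lowest WT value being 1.02 times the highest bKO value. The log2 difference was -0.21 (SE 0.06, 95% interval -0.35 to -0.06, limma adjusted p = 0.209), and -0.18 with bKO replicates 1 and 3 averaged (limma adjusted p = 0.635).

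G6pc3 held nearly the same level in all libraries. It was at 31.6, 29.7 and 31.5 FPKM in WT libraries 1 to 3 and at 32.2, 31.6 and 31.3 FPKM in bKO libraries 1 to 3. The highest of the 6 values was 1.08 times the lowest. Its log2 difference was -0.02, with a 95% interval of -0.14 to 0.09 (limma adjusted p = 0.839), and the sign turned positive without quantile normalization, at 0.034, and without WT replicate 1, at 0.0041. Of the FPKM of the phosphatase genes in the table, G6pc2 took 95.6% ± 0.53 in WT and 93.3% ± 0.46 in bKO (SD, n = 3 each).

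Ratios within a library do not change with its scaling, and 6 of them were compared with exact permutation tests, in which 3 libraries against 3 cannot give a two-sided p below 0.1. The G6pc2 to G6pc3 ratio was 20.9, 24.9 and 19.4 in WT libraries 1 to 3 and 13.1, 15.1 and 13.5 in bKO libraries 1 to 3. The groups did not overlap, with a log2 difference of -0.64 (exact permutation test, two-sided, p = 0.1, adjusted over the 6 ratios p = 0.2). The G6pc2 to Slc37a4 ratio was 21.9, 24.9 and 19.98 in WT and 16.0, 16.5 and 16.4 in bKO, in the order of replicates. Here too the groups did not overlap, so G6pc2 was lower in bKO also relative to the carrier (log2 difference -0.45, exact permutation p = 0.1, adjusted p = 0.2). Relative to the geometric mean of 14 beta cell markers, G6pc2 stood at 8.06, 8.65 and 8.65 in WT and at 6.35, 5.61 and 6.29 in bKO, again without overlap (log2 difference -0.48, exact permutation p = 0.1, adjusted p = 0.2). With 1 library left out, that difference stayed between -0.51 and -0.42. Of the 14 markers themselves, Ucn3, Pcsk1 and Ero1lb also did not overlap and were lower in bKO (log2 differences -0.78, -0.77 and -0.36). That was 3 of the 14, where 6.48% of all genes did so. Limma called 0 of the 14, and 3 had an unadjusted p below 0.05, beside 14.2% of all genes. The summed level of these markers was 1190 to 1454 FPKM in WT and 1053 to 1349 FPKM in bKO.

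The ratio of G6pc2 to Slc2a2 did overlap. It was 29.9, 25.3 and 39.1 in WT libraries 1 to 3 and 27.7, 23.4 and 26.9 in bKO libraries 1 to 3 (log2 difference -0.25, exact permutation p = 0.3, adjusted p = 0.3). WT replicate 3 was the highest, and without it the difference was -0.09.

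**Figure D2:**
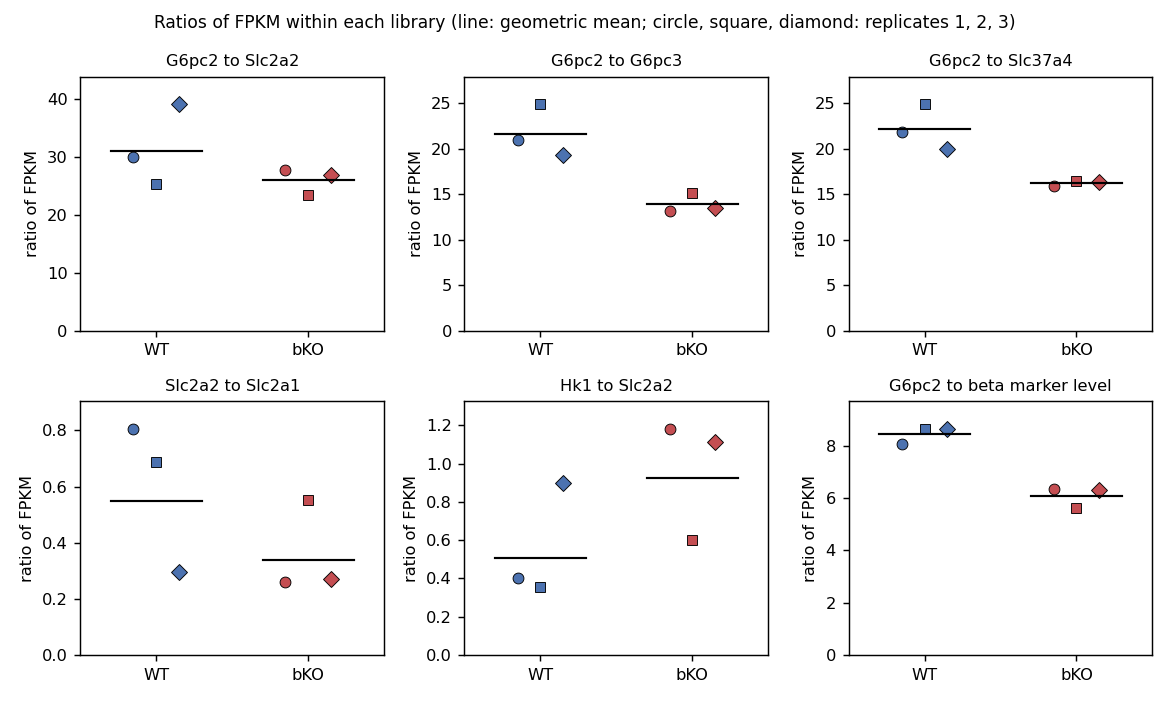
Ratios of FPKM within each library (y axis, linear and starting at 0) for WT and bKO (x axis), with circles, squares and diamonds for replicates 1, 2 and 3 and a line at the geometric mean. G6pc2 relative to G6pc3, to Slc37a4 and to the beta cell markers is lower in all 3 bKO libraries, whereas the 3 ratios with Slc2a2 overlap between groups.

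Of the transporters, Slc2a2 was at 22.1, 29.2 and 15.6 FPKM in WT libraries 1 to 3 and at 15.3, 20.4 and 15.7 FPKM in bKO libraries 1 to 3. The groups overlapped, because WT replicate 3 lay with the bKO libraries. The log2 difference was -0.40 (SE 0.23, 95% interval -0.95 to 0.15, limma adjusted p = 0.478). It was -0.63 without WT replicate 3 and -0.19 without WT replicate 2, and it did not pass in either fit (limma adjusted p = 0.204 and 0.763). From lowest to highest, the order of the libraries for Slc2a2 matched that of the summed beta cell markers in 4 of 6 positions, with WT replicate 2 highest and WT replicate 1 next in both. The order for G6pc3, whose highest library was 1.08 times its lowest, matched in 4 of 6 positions too. The part of beta cell content in the Slc2a2 values was not tested.

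Slc2a1 was at 27.4, 42.5 and 52.8 FPKM in WT libraries 1 to 3 and at 58.4, 36.9 and 58.0 FPKM in bKO libraries 1 to 3. Its lowest library was WT replicate 1, and bKO replicate 2 lay inside the WT range. The log2 difference was 0.30 (SE 0.26, 95% interval -0.34 to 0.93, limma adjusted p = 0.628). It was 0.06 without WT replicate 1, 0.52 without bKO replicate 2 and 0.19 in the fit that averaged bKO replicates 1 and 3. Slc2a1 stood above Slc2a2 in all 6 libraries. The Slc2a2 to Slc2a1 ratio was 0.81, 0.69 and 0.30 in WT libraries 1 to 3 and 0.26, 0.55 and 0.27 in bKO libraries 1 to 3, which overlapped (log2 difference -0.69, exact permutation p = 0.2, adjusted p = 0.24).

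Among the 11 Slc2a genes in the table, neither of the 2 had the highest mean in WT. Slc2a5, the fructose transporter GLUT5, took 42.0% ± 5.15 of the family's FPKM in WT, Slc2a1 30.6% ± 8.61 and Slc2a2 16.8% ± 4.61 (SD, n = 3). In bKO the shares were 34.7% ± 5.18 for Slc2a5, 40.6% ± 8.15 for Slc2a1 and 13.8% ± 2.998 for Slc2a2. By library, Slc2a5 exceeded Slc2a1 in WT replicates 1 and 2 and in bKO replicate 2, and Slc2a1 exceeded Slc2a5 in the other libraries.

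Hk1 was at 8.93, 10.4 and 14.0 FPKM in WT libraries 1 to 3 and at 18.0, 12.2 and 17.5 FPKM in bKO libraries 1 to 3. Both bKO replicates 1 and 3 lay above every WT library, and bKO replicate 2 lay below WT replicate 3. The log2 difference was 0.42 (SE 0.19, 95% interval -0.04 to 0.88, limma adjusted p = 0.388). With bKO replicates 1 and 3 averaged it was 0.33 (limma adjusted p = 0.824). Hk2 was at 2.39, 2.82 and 4.03 FPKM in WT and at 4.92, 2.92 and 4.88 FPKM in bKO, in the order of replicates. Its pattern over the libraries was that of Hk1, with the same order from lowest to highest. The log2 difference was 0.28 (95% interval -0.23 to 0.79, limma adjusted p = 0.574), and 0.14 without WT replicate 1. Hk1 took 78.4% ± 0.68 of the summed Hk1 and Hk2 FPKM in WT and 79.1% ± 1.36 in bKO (SD, n = 3 each).

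The Hk1 to Slc2a2 ratio sets a high-affinity kinase against the low-affinity transporter. It was 0.40, 0.36 and 0.90 in WT libraries 1 to 3 and 1.18, 0.60 and 1.11 in bKO libraries 1 to 3. WT replicate 3 lay between the bKO values (log2 difference 0.87, exact permutation p = 0.2, adjusted p = 0.24).

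Slc2a1, Hk1 and Hk2 varied together over the 6 libraries. In each the lowest library was WT replicate 1, WT replicate 3 was the highest of its group, and bKO replicates 3 and 1 were the highest of all. The summed acinar markers were at 1090, 13102 and 16200 FPKM in WT libraries 1 to 3 and at 21294, 9193 and 21141 FPKM in bKO libraries 1 to 3. Most of this sum came from Ctrb1, at 936 FPKM in WT replicate 1 and 15326 FPKM in bKO replicate 1. From lowest to highest, the order of the libraries for Slc2a1 was that of the acinar sum in 6 of 6 positions. For Hk1 and Hk2 it was so in 4 of 6. Not every acinar marker kept this order, as Ptf1a was highest in WT replicate 2, at 4.95 FPKM. How many of all genes share the order was not counted. All 12 acinar markers were detected in every library, and all 12 had positive differences with a median of 1.57 on the log2 scale, of which limma called 0, with 0 at an unadjusted p below 0.05. Endothelial markers, from a cell type that uses GLUT1, summed to 144 to 160 FPKM in WT and 204 to 215 FPKM in bKO, with 0 called by limma. Of these, 8 of 8 did not overlap and were higher in bKO, beside 15.3% of all genes, and 7 had an unadjusted p below 0.05, beside 14.2%. Duct markers summed to 999 to 1557 FPKM in WT and 1511 to 1935 FPKM in bKO, with 5 of 5 positive differences, 0 called by limma and 0 at an unadjusted p below 0.05. Krt19, a keratin of duct cells, was at 50.8, 163 and 206 FPKM in WT libraries 1 to 3 and at 251, 136 and 234 FPKM in bKO libraries 1 to 3, with the libraries in the same order as for Slc2a1. Markers of stellate cells and fibroblasts summed to 137 to 345 FPKM in WT and 235 to 445 FPKM in bKO, and those of macrophages and leukocytes to 52.7 to 74.4 FPKM in WT and 41.6 to 49.1 FPKM in bKO. Of the other islet cells, alpha cell markers summed to 10903 to 12556 FPKM in WT and 8798 to 14011 FPKM in bKO. The alpha sum was lowest in bKO replicates 1 and 3 and highest in bKO replicate 2. Delta and PP cell markers summed to 11227 to 15671 FPKM in WT and 12506 to 15504 FPKM in bKO. Against the order of the acinar sum, the endothelial and macrophage sums matched in 1 of 6 positions and the duct and stellate sums in 2. The alpha sum and the delta and PP sum matched in 0. The endothelial sum was highest in bKO replicate 2, which lay inside the WT range for Slc2a1. None of these lists had a member at 0 in any library. The part of these cells in the values of Slc2a1, Hk1 and Hk2 was not tested.

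**Figure D3:**
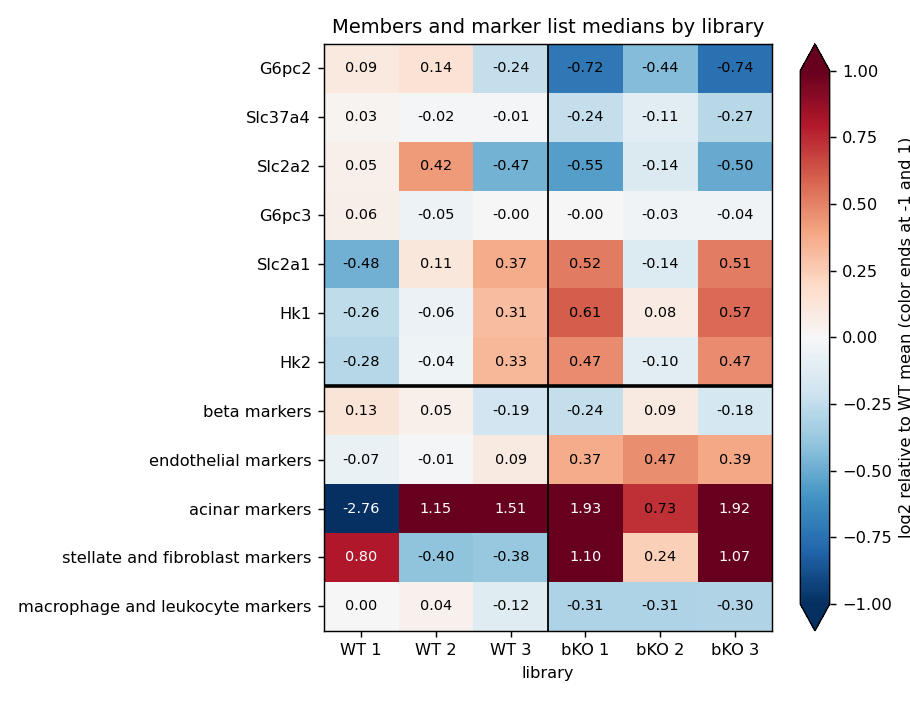
Quantile normalized log2(FPKM + 1) of the 7 genes relative to the WT mean (rows) in each library (columns). Rows below the line give medians of marker lists on the same scale. The lists shown are beta, endothelial, acinar, stellate and fibroblast, and macrophage and leukocyte. Colors end at -1 and 1 and each cell prints its value. Slc2a1, Hk1 and Hk2 share a pattern with WT replicate 1 lowest and bKO replicates 1 and 3 highest, while G6pc2 is at -0.44 to -0.74 in bKO.

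Leaving out a library moved the count of genes without overlap. Without WT replicate 3, 5 of the 7 had none, with Slc2a2, G6pc2 and Slc37a4 lower and Hk1 and Hk2 higher in bKO, where 37.5% of all genes had none. Without bKO replicate 2, 5 of the 7 had none, with G6pc2 and Slc37a4 lower and Slc2a1, Hk1 and Hk2 higher, where the share of all genes was 45.0%. Without any other single library the count was 2, again G6pc2 and Slc37a4. The share of all genes was then 37.4% without WT replicate 1 and 28% without WT replicate 2. It was 26.2% without bKO replicate 1 and 26.2% without bKO replicate 3.

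Other genes of glucose entry were read from lists set with earlier results of these data known, and 0 genes passed over all genes in any of the 4 lists. Of 17 other sugar transporters, 12 were in the table and were tested. Of these 8 had negative and 4 positive differences, with a median of -0.03, and 4 had an unadjusted p below 0.05, where 14.2% of all genes did. The groups did not overlap for 3 that were lower in bKO, beside 6.48% of all genes, and for 2 that were higher, beside 15.3%. The 2 higher ones, named here after their values were seen, were Slc5a1, the sodium-coupled transporter SGLT1, at 0.34 ± 0.04 and 0.57 ± 0.08 FPKM (limma adjusted p = 0.206), and Slc2a3, the neuronal transporter GLUT3, at 1.78 ± 0.19 and 2.25 ± 0.05 FPKM (limma adjusted p = 0.413). Slc2a5 was at 58.7, 56.6 and 51.0 FPKM in WT libraries 1 to 3 and at 40.0, 48.0 and 41.4 FPKM in bKO libraries 1 to 3. The groups did not overlap, with bKO lower (log2 difference -0.39, limma adjusted p = 0.167). Slc2a6, a family member of lysosomal membranes, was at 1.92 ± 0.28 FPKM in WT against 1.24 ± 0.10 FPKM for bKO, without overlap (log2 difference -0.46, limma adjusted p = 0.136). Slc2a13, a proton-coupled inositol transporter, was at 1.70 ± 0.15 and 1.46 ± 0.07 FPKM (limma adjusted p = 0.242).

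Of 12 other sugar kinases, phosphatases and their regulators, 10 were tested, 5 with positive and 5 with negative differences and a median of -0.02, and 0 had an unadjusted p below 0.05. Galk1, which phosphorylates galactose, was at 7.43 ± 1.57 FPKM in WT against 10.8 ± 2.16 FPKM for bKO (log2 difference 0.41, limma adjusted p = 0.376). Khk, the fructose kinase, had a log2 difference of -0.15 and Pfkfb3, which makes the activator of phosphofructokinase, one of 0.12, with limma adjusted p of 0.658 for both.

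Of 10 genes for enzymes that use glucose-6-phosphate or follow it, 9 had positive differences, with a median of 0.09 beside -0.01 over all genes. An unadjusted p below 0.05 was found for 2 of them, beside 14.2% of all genes, and 3 did not overlap and were higher in bKO, beside 15.3% of all genes. WT replicate 1, the library with the low acinar sum, was the lowest of the 6 libraries for 8 of the 10 genes, and without it the median was 0.03. The part of this library's cell make-up in these values was not tested. H6pd, a dehydrogenase that uses glucose-6-phosphate inside the endoplasmic reticulum, was at 44.0, 36.3 and 39.4 FPKM in WT libraries 1 to 3 and at 54.3, 47.8 and 54.2 FPKM in bKO libraries 1 to 3. Every bKO library lay above every WT library, the opposite side from Slc37a4 and G6pc2 (log2 difference 0.34, limma adjusted p = 0.193). Gpi1, the isomerase of glycolysis, was at 135 ± 9.99 FPKM in WT against 150.3 ± 7.07 FPKM for bKO (log2 difference 0.13, limma adjusted p = 0.345). Pgd, of the pentose phosphate pathway, was at 66.8 ± 14.96 and 79.6 ± 3.26 FPKM (log2 difference 0.25, limma adjusted p = 0.448).

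Of 8 regulators of glucose transport and of the glucose response, 7 were tested, 6 with positive differences and a median of 0.15. An unadjusted p below 0.05 was found for 3, beside 14.2% of all genes. The groups did not overlap for 3 that were higher in bKO, beside 15.3% of all genes, and for 1 that was lower, beside 6.48%. Txnip, an arrestin-like protein that draws GLUT1 from the cell surface, was at 34.9, 52.1 and 46.7 FPKM in WT libraries 1 to 3 and at 73.1, 84.6 and 72.1 FPKM in bKO libraries 1 to 3. The bKO libraries were all higher (log2 difference 0.75, limma adjusted p = 0.101). Its relative Arrdc4 was at 7.49 ± 1.16 FPKM in WT against 10.2 ± 0.52 FPKM for bKO, also without overlap (log2 difference 0.33, limma adjusted p = 0.2501). Mlx, the partner of the glucose-responsive factor ChREBP, was at 30.1 ± 0.21 and 24.9 ± 1.71 FPKM, lower in every bKO library (log2 difference -0.33, limma adjusted p = 0.108).

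**Figure D4:**
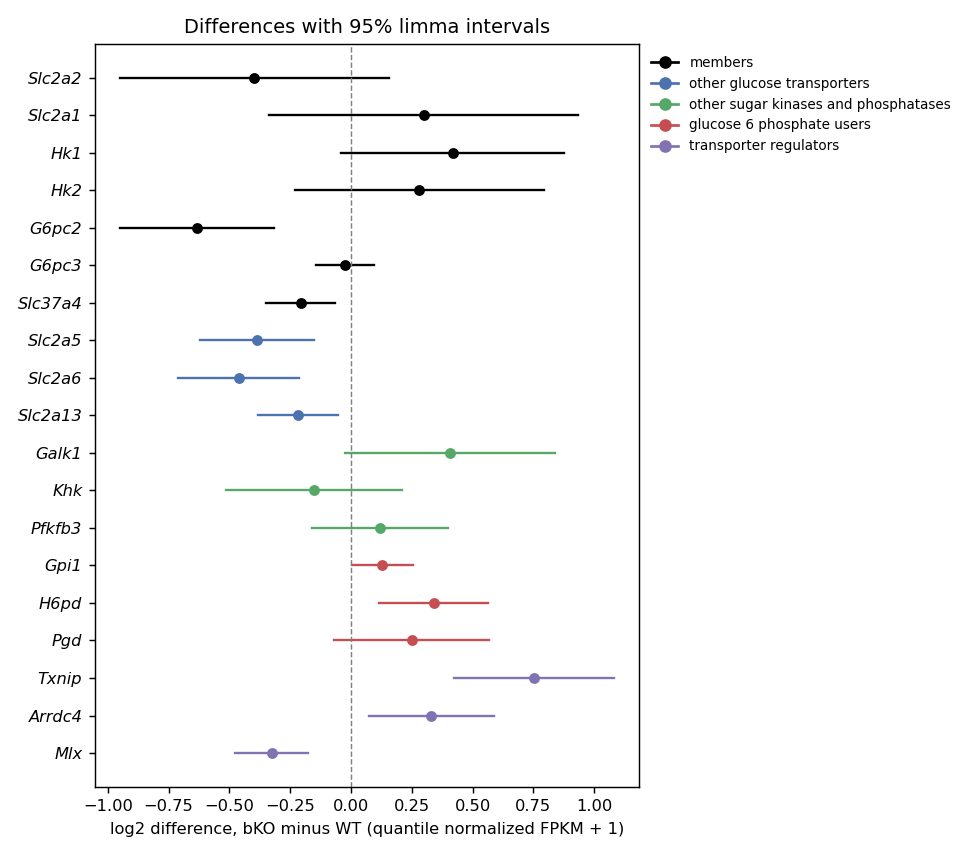
Log2 difference of bKO minus WT (x axis, quantile normalized FPKM + 1) with its 95% limma interval for the 7 genes and the genes named from the 4 lists (rows, colored by list). No gene shown passed the threshold on adjusted p, and among the 7 genes the intervals of G6pc2 and Slc37a4 lie below 0.

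The genes most like G6pc2 over the 6 libraries were found by the root mean square difference of gene-centred log2 values among 6467 genes with a mean of at least 10 FPKM. For Lrrc10b this was 0.02, for Lpl, lipoprotein lipase, 0.05, for Ogdhl, a relative of oxoglutarate dehydrogenase, 0.06, and for Pcsk2os1 0.07, where the median gene lay at 0.35. A gene that did not vary at all would also lie at 0.35. Pcsk2os1 is an antisense RNA, and whether the counting used strand is not given, so its fragments may not be separable from those of its partner. Lrrc10b, nearest of all, was at 65.0, 66.7 and 52.7 FPKM in WT libraries 1 to 3 and at 38.6, 46.7 and 37.5 FPKM in bKO libraries 1 to 3, with WT replicate 3 lowest in WT and bKO replicate 2 highest in bKO, as in G6pc2. Its log2 difference was -0.62 (limma adjusted p = 0.123). This shared order and size follow from the choice of Lrrc10b by its likeness to G6pc2 in the same libraries. For Slc2a2 the nearest genes were farther away: Ppp1r1a, a protein phosphatase inhibitor, at 0.12, the peptidase Dpp4 at 0.13, the sulfate-activating enzyme Papss2 at 0.14, and Tat, tyrosine aminotransferase, at 0.14.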

How the data were processed

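The deposited values are FPKM for 16547 genes in 6 islet RNA libraries. Per the labels and design text, a service provider mapped trimmed reads to the mouse genome and ran Cufflinks with the annotation held fixed (-G). The submitters' processing notes name the build mm9. No source used here gives the aligner. Although the design text mentions a log transformation, a quantile normalization and a zero filter, the deposited FPKM are linear, and 585 genes have a 0 in at least 1 library. Rows naming no gene (2) were left out, and unmapped columns numbered 0.

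Genes with any 0 were not tested. Values were transformed as log2(FPKM + 1), quantile normalized and tested with limma 3.58.1 in R 4.3.3 (eBayes with trend, two-sided, Benjamini-Hochberg over 15962 genes, threshold 0.05). Log2 differences on this scale understate the change of low genes. Levels, folds and overlap used deposited FPKM. Exact permutation tests over libraries served the 6 ratios. This limma procedure was checked on simulated libraries. It recovered 64% of 50 changes of 1.5-fold and 98% of 50 changes of 4-fold, and 12 of its 179 calls were false. The simulated noise was drawn independently for each library, so the check does not cover shifts that libraries share. The SDs were also shuffled over genes, so the link of spread to level that the variance trend uses was not kept. The recovered shares may therefore differ from those in the real libraries. Fragments per library were estimated from the FPKM of genes with a single transcript and GENCODE M21 transcript lengths, with 63.6% to 69.5% of low values within 0.1 of a whole number, and counting errors derived from them cover counting alone. Members, lists and tests were chosen with earlier results of these data known. Named genes are the 7 members, Kcnj11, the 3 genes of each list with the smallest p and a mean of at least 1 FPKM, and the 4 genes nearest in pattern to G6pc2 and to Slc2a2. Start-site windows come from RefSeq (GRCm38.p6). As alternatives, the pseudocount was set to 0.1, quantile normalization was dropped or replaced by median of ratios scaling, the zero filter was dropped or joined by a minimum mean of 1 FPKM, the variance trend was dropped, the replicate number entered as a block, single libraries were left out, and bKO replicates 1 and 3 were averaged. Python 3.11.15 with scipy 1.17.1, pandas 2.3.3, numpy 2.4.6 and matplotlib 3.10.9 served all other steps.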

Additional observations from a re-analysis of the deposited data

How the results depend on the processing

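Over 14 alternatives for each of the 7 genes, 96 of 98 differences kept their direction, and none of the 7 genes was called under any of them. The exceptions were G6pc3, at 0.034 without quantile normalization and at 0.0041 without WT replicate 1, with a range of -0.051 to 0.0041 over single libraries left out. For G6pc2 the log2 difference stayed between -0.76 and -0.57 over all alternatives, and its limma adjusted p between 0.0806 (median of ratios scaling) and 0.486 (without bKO replicate 3). The 6 ratios kept their direction throughout. The count of genes called over all genes, 31, became 0 with the replicate number as a block, 0 with bKO replicates 1 and 3 averaged, and 0 to 50 with 1 library left out. It split into 10 higher and 21 lower, and into 19 higher and 20 lower without quantile normalization. The count of members without overlap was 2 to 5 with 1 library left out and 2 on quantile normalized values, both chosen after seeing the data. With 1 library left out, 26.2% to 45% of all genes had no overlap. Same-numbered libraries did not stand out as pairs. Their deviations from the group means correlated at -0.20, 0.07 and 0.30, and those of differently numbered libraries at -0.37 to 0.31. With 3 libraries in each group, these correlations cannot settle whether the replicate numbers pair the libraries. With the replicate block G6pc2 stood at -0.63 (limma adjusted p = 0.161). The causes of these shifts were not tested.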
